A study of Rattus norvegicus with 138 samples.

Results

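Hox genes are described here in 3 regions of the rat brainstem, the nucleus of the solitary tract (NTS), the caudal ventrolateral medulla (CVLM) and the rostral ventrolateral medulla (RVLM). Members were chosen by name alone, as the rows whose gene symbol is Hox, a cluster letter from a to d and a number. This rule gave 43 of the 32883 rows in each table. They carry 38 symbols, since some symbols stand under 2 or 3 Ensembl identifiers.

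The rats were female, of the spontaneously hypertensive strain (SHR/NHsd) or of the normotensive control strain Wistar-Kyoto (WKY/NHsd), and the labels name no treatment or transgene. SHR and WKY rats differ at many loci, so a strain difference cannot be tied to a single allele. Rats of 8, 10, 12, 16 and 24 wk were compared, and in that order WKY rats numbered 5, 4, 3, 3 and 3 and SHRs 5, 5, 6, 6 and 6, which makes 46. Tissue was punched from frozen sections, and each rat gave 1 RNA-seq library per region. For 2 CVLM libraries the title and the age label conflict, and they were placed at 8 wk by the title. Such punches hold neurons of several kinds, glia and vessels, so that fewer cells with a transcript and less of it per cell cannot be told apart in any value below. Library totals ran from 5904581 to 17889417 expected counts, with medians for NTS, CVLM and RVLM of 9970392, 10009218 and 10335124.

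Hox genes code for homeodomain transcription factors and lie in 4 clusters, named a to d. Genes with the same number in different clusters are paralogs from a common ancestral gene. In the embryo, genes at the low-numbered end of a cluster are switched on further forward, in the hindbrain, and genes with higher numbers only further back, in the spinal cord. This order gives segments of the hindbrain their identity and the neurons born there their type and wiring, and part of it stays readable in the adult brainstem. Hox proteins bind DNA together with the cofactors Pbx, Meis and Pknox, retinoic acid sets the forward limits of many Hox genes, and Polycomb and Trithorax proteins keep the on and off states.

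Levels are given as CPM, counts per 1000000 counts in tested genes after TMM scaling over all libraries. They are not divided by transcript length, so values are compared between regions or rats for 1 gene and never between genes. A gene was tested in a region if it reached an rlog value, a log2 scale with low counts drawn together, of 3.5 in at least 1 library there, and between regions if it did so in at least 1 region. Of the 43 rows, 16 were tested, with 15 past this filter for the NTS, 14 for the CVLM, 7 for the RVLM and 7 for all 3 regions. By cluster these were 3 of 15 rows of cluster a, 7 of 10 of cluster b, 3 of 9 of cluster c and 3 of 9 of cluster d. The 27 rows under the filter everywhere had at most 29 counts in any library, and 5 of them had none. All 18 rows of groups 9 to 13, the groups with the highest numbers, were among these, and none had more than 6 counts in a library.

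Of the tested genes, none was lower in the CVLM than in the RVLM beyond the threshold and 13 were higher. Hoxb5, Hoxb6, Hoxc6, Hoxc5 and Hoxa5 had the largest differences, and Hoxa2, Hoxb3 and Hoxd1 were not called. Between the NTS and the RVLM, 13 genes were likewise higher in the NTS and none lower, while between the NTS and the CVLM the count was 3 higher in the NTS, namely Hoxa5, Hoxb6 and Hoxb7, and none lower. Calls needed a difference of 2-fold or more and an adjusted p of 0.01 or less by the quasi-likelihood test of edgeR, with the rat as a block and 46 rats. Over all 14043 tested genes the shares called were 2.97% higher and 2.41% lower in the CVLM than in the RVLM, 4.2% higher and 1.45% lower in the NTS than in the CVLM, and 6.45% higher and 3.19% lower in the NTS than in the RVLM. A Hox gene that passes the filter only where it is high is more likely to be called, so these counts describe and do not support. Without the filter 38 of the 43 rows could be tested, of which 15 were called between CVLM and RVLM, 4 between NTS and CVLM and 17 between NTS and RVLM, all higher in the region named first.

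**Figure D1:**
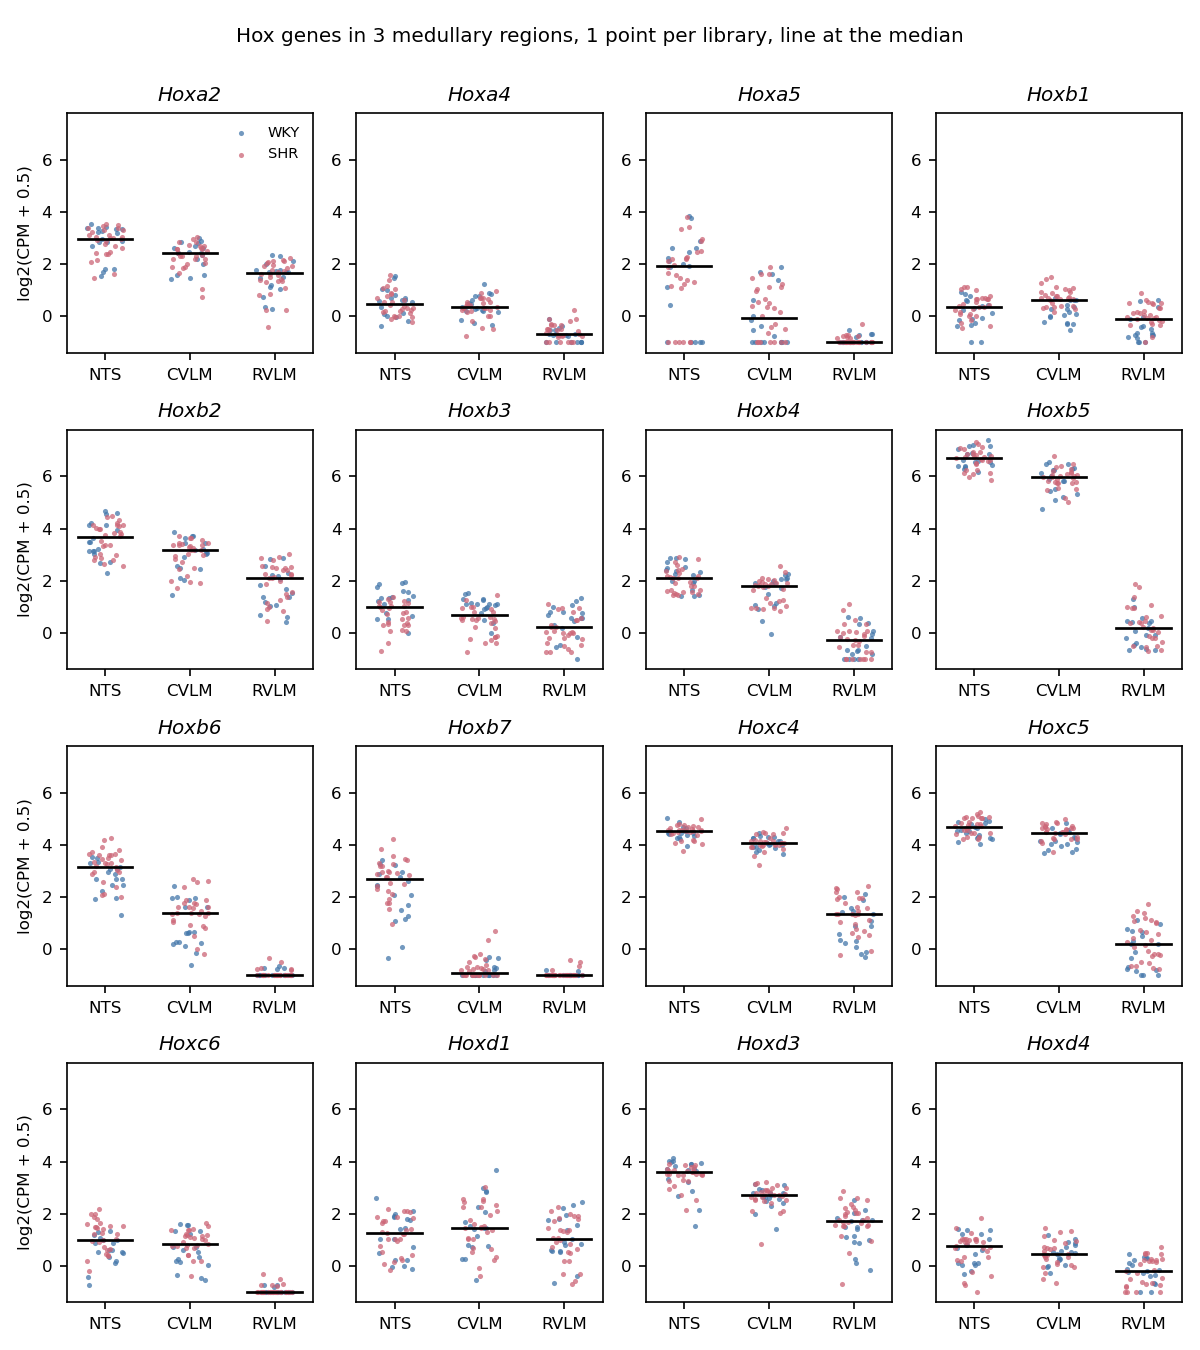
Each panel shows 1 tested Hox gene, with 1 point per library on a log2(CPM + 0.5) axis for the NTS, CVLM and RVLM, WKY rats in blue, SHRs in red and a line at the median. Hoxb5, Hoxc4 and Hoxc5 in the NTS and CVLM lie above all RVLM points, while the regions overlap for Hoxb3 and Hoxd1.

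Groups 1 to 3 are those with the most forward limits in the embryonic hindbrain. Hoxa2 (ENSRNOG00000005968), whose embryonic domain reaches furthest forward, had lowest, median and highest values of 2.26, 7.42 and 11.2 CPM in the NTS, 1.18, 4.83 and 7.74 CPM in the CVLM and 0.264, 2.67 and 4.66 CPM in the RVLM. It fell short of the 2-fold threshold between CVLM and RVLM, with a log2 difference of 0.92 ± 0.10 (SE), and passed it between NTS and RVLM with 1.49 ± 0.10. Hoxa2 also stands under ENSRNOG00000059600, which was under the filter in every region. In the NTS that identifier was at 0 in 29 of 46 libraries and reached 3.30 CPM in others. Reads of Hoxa2 may thus have been split between identifiers, which was not tested. The paralog Hoxb2 (ENSRNOG00000008365) stood at 4.44, 12.3 and 24.9 CPM in the NTS, 2.21, 8.59 and 14.0 CPM in the CVLM and 0.845, 3.75 and 7.55 CPM in the RVLM. Median values of both genes fell in the order NTS, CVLM, RVLM with ranges that overlap, and Hoxb2 was higher in the CVLM than in the RVLM in 45 of 46 rats (log2 difference 1.21 ± 0.09, SE). Hoxd3 (ENSRNOG00000001577), a gene of axial patterning, had 2.36, 11.7 and 16.9 CPM in the NTS, 1.31, 6.06 and 8.89 CPM in the CVLM and 0.112, 2.77 and 6.92 CPM in the RVLM. Its differences were 1.12 ± 0.11 on the log2 scale between CVLM and RVLM and 1.97 ± 0.11 between NTS and RVLM.

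Hoxb1 (ENSRNOG00000008506), which specifies facial motor neurons in the embryo, and Hoxd1 (ENSRNOG00000001572) did not follow that order. Values of Hoxb1 were 0, 0.775 and 1.69 CPM in the NTS, 0.199, 1.03 and 2.38 CPM in the CVLM and 0, 0.442 and 1.38 CPM in the RVLM as lowest, median and highest. Hoxd1 showed 0.388, 1.88 and 5.53 CPM in the NTS, 0.18, 2.27 and 12.2 CPM in the CVLM and 0.112, 1.56 and 4.9 CPM in the RVLM. Both were lower in the NTS than in the CVLM by less than 2-fold, Hoxb1 with a log2 difference of -0.41 ± 0.16 (SE, adjusted p = 0.0232) and Hoxd1 with -0.50 ± 0.15 (SE, adjusted p = 0.00321) in the quasi-likelihood test of edgeR, and the NTS was the lower region in most rats. Between NTS and RVLM, Hoxd1 had a difference of 0.10 ± 0.16 (SE, adjusted p = 0.565, edgeR), which is within its error. Hoxb3 (ENSRNOG00000008313), a gene with a limit in the caudal hindbrain, had 0.121, 1.47 and 3.36 CPM in the NTS, 0.109, 1.11 and 2.41 CPM in the CVLM and 0, 0.682 and 2.0 CPM in the RVLM. Its differences of 0.63 ± 0.16 between CVLM and RVLM and 0.96 ± 0.16 between NTS and RVLM were positive and under 2-fold.

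Sequence in front of the start of 19 Hox symbols was found in RefSeq's promoter table (build GRCr8, while the counts were made on rn6), 7 of them tested genes. It is shown for Hoxa2 and Hoxb1, 2 genes of the forward groups with unlike order across the regions, because both hold the pair site at which a Hox and a Pbx protein bind next to each other. The 250 bases before the start are given from 5′ to 3′ on the gene's strand, with the match in capitals.
Hoxa2 (chr4:82595693-82595942, - strand): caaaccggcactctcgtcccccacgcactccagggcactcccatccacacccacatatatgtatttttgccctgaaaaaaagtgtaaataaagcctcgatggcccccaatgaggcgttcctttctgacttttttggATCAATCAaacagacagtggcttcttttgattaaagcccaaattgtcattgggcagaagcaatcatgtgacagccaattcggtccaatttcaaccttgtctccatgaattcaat
Hoxb1 (chr10:81827665-81827914, + strand): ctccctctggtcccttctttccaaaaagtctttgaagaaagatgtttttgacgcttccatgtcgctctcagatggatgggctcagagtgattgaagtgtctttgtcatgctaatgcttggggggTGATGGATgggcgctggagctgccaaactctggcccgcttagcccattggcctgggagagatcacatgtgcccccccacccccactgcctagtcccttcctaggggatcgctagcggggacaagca
The site was searched as TGATNNAT on both strands, and starts 114 bases before the start of Hoxa2 on the opposite strand and 126 bases before that of Hoxb1 on the same strand. It occurs in 3 of the 21 Hox entries, the other being Hoxd11, and in 7.96% of all 33469 windows. A match of these letters does not show that a protein binds there.

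Group 4 genes have their forward limit in the caudal hindbrain. Hoxc4 (ENSRNOG00000016613) had lowest, median and highest values of 13.3, 22.6 and 32.7 CPM in the NTS, 8.89, 16.5 and 24.7 CPM in the CVLM and 0.325, 2.05 and 4.87 CPM in the RVLM. No CVLM or NTS library fell as low as the highest RVLM library, and the log2 difference of CVLM from RVLM was 3.08 ± 0.11 (SE, adjusted p = 9.39e-46, the quasi-likelihood test of edgeR), with the CVLM higher in 46 of 46 rats. Hoxb4 (ENSRNOG00000008191), known from blood stem cells as well, had 2.13, 3.8 and 6.95 CPM in the NTS, 0.464, 2.97 and 5.41 CPM in the CVLM and 0, 0.319 and 1.68 CPM in the RVLM. Its NTS libraries all lay above its RVLM libraries, whereas CVLM and RVLM overlapped with a difference of 2.91 ± 0.17 on the log2 scale. Hoxd4 (ENSRNOG00000001578) changed less, with 0, 1.18 and 3.1 CPM in the NTS, 0.131, 0.88 and 2.27 CPM in the CVLM and 0, 0.381 and 1.15 CPM in the RVLM and log2 differences of 1.14 ± 0.20 between CVLM and RVLM and 1.40 ± 0.19 between NTS and RVLM. Hoxa4 stands under 2 identifiers whose counts were equal in 35 NTS, 40 CVLM and all 46 RVLM libraries, so its reads may have been split between copies and its level is uncertain. The tested identifier (ENSRNOG00000057095) had 0.283, 0.899 and 2.48 CPM in the NTS, 0.0874, 0.777 and 1.84 CPM in the CVLM and 0, 0.129 and 0.68 CPM in the RVLM, and it was higher in the CVLM than in the RVLM by 2.38 ± 0.20 on the log2 scale.

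For Hoxc4 and Hoxd4 the RefSeq promoter holds a half-site of retinoic acid receptors, AGGTCA, on the opposite strand, where it reads TGACCT. Both windows are shown because the receptor gene Rarb and enzymes of retinoic acid are described below for the same regions, and the match is in capitals.
Hoxc4 (chr7:136048809-136049058, + strand): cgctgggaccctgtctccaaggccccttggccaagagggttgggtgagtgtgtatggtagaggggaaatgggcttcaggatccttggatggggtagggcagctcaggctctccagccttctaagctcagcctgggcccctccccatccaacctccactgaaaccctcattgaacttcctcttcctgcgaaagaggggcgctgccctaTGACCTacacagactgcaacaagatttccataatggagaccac
Hoxd4 (chr3:80021636-80021885, + strand): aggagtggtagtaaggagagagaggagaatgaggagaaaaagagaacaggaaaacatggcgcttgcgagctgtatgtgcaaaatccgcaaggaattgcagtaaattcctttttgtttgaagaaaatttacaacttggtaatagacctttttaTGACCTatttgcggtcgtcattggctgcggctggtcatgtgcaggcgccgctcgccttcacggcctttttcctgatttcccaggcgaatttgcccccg
The half-site starts 43 and 98 bases before the start, and is found on either strand in 3 of the 21 Hox entries, with Hoxd10, and in 14.1% of all windows. Letters alone are no evidence of receptor binding.

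Hoxb5 and Hoxc5 differed most clearly from the RVLM. Hoxb5 (ENSRNOG00000008010), which in the embryo acts in vagal neural crest and caudal hindbrain, had lowest, median and highest values of 58.1, 104 and 168 CPM in the NTS, 26.3, 62.9 and 111 CPM in the CVLM and 0.126, 0.624 and 3.2 CPM in the RVLM. All CVLM libraries were above all RVLM libraries, 77.9-fold in the means, and the log2 difference was 6.30 ± 0.11 (SE, adjusted p = 1.6e-70, the quasi-likelihood test of edgeR). In the NTS Hoxb5 was higher still than in the CVLM, in 46 of 46 rats, but by under 2-fold (log2 difference 0.77 ± 0.07, SE). Hoxc5 (ENSRNOG00000016598), which in the cervical cord takes part in phrenic motor neuron identity, had 16.0, 25.1 and 38.3 CPM in the NTS, 12.5, 21.4 and 31.4 CPM in the CVLM and 0, 0.653 and 2.81 CPM in the RVLM. It too separated the CVLM from the RVLM in every library, 25.7-fold in the means and 4.78 ± 0.13 on the log2 scale, while NTS and CVLM differed by only 0.28 ± 0.09. Every library of the CVLM was above every library of the RVLM for 3 Hox genes, Hoxb5, Hoxc4 and Hoxc5, and for 0.313% of all tested genes. Between NTS and RVLM this held for 6, with Hoxb4, Hoxb6 and Hoxb7 added, and for 1.06% of all genes, and between NTS and CVLM for 0 Hox genes against 0.442%.

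Hoxa5 (ENSRNOG00000052804), needed for the respiratory tract and for phrenic motor neurons in the embryo, was listed at 0 in 11 NTS, 15 CVLM and 33 RVLM libraries. Above 0 it ran from 0.857 to 13.8 CPM in the NTS (median 4.13) and from 0.0974 to 3.24 CPM in the CVLM (median 0.975), and in the RVLM it reached at most 0.324 CPM. The NTS thus held either none or a clear level, and 9 rats were at 0 in both NTS and CVLM, 2 only in the NTS and 6 only in the CVLM. None of the 14 NTS libraries whose name in the table ends in 2 was at 0. Among the 32 NTS libraries whose name ends in 1, the 11 with Hoxa5 at 0 had medians of 3.05 CPM for Hoxa2 and 6.15 CPM for Hoxd3, against 9.68 and 12.7 CPM in the other 21, while for Hoxb5 they were 116 and 112 CPM. In the CVLM, over libraries of both name endings, the medians were 3.20 against 5.43 CPM for Hoxa2 and 5.15 against 6.44 CPM for Hoxd3. For Hoxb5 they were 69.3 CPM with Hoxa5 at 0 and 58.9 CPM in the others. An expected count of 0 can be an estimate that gave all shared reads to another gene, which was not tested. The log2 difference of CVLM from RVLM was 4.13 ± 0.41 and that of NTS from CVLM 2.20 ± 0.24 (SE), both called, and both average over the libraries at 0.

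Groups 6 and 7 are the last whose genes passed the filter. Hoxb6 (ENSRNOG00000007823), a gene of the cervical and thoracic cord, had lowest, median and highest values of 1.98, 8.46 and 18.8 CPM in the NTS, 0.164, 2.1 and 6.08 CPM in the CVLM and 0, 0 and 0.305 CPM in the RVLM. Hoxc6 (ENSRNOG00000016442), which specifies motor neurons of the forelimb level, had 0.102, 1.48 and 3.99 CPM in the NTS, 0.195, 1.28 and 2.65 CPM in the CVLM and 0, 0 and 0.315 CPM in the RVLM. Both were close to absent in the RVLM, with 12 counts each over all 46 libraries, so that their log2 differences of CVLM from RVLM, 5.87 ± 0.25 and 5.27 ± 0.28 (SE), rest on few RVLM counts. Hoxb6 was also higher in the NTS than in the CVLM in 46 of 46 rats, by 2.04 ± 0.12 (SE, adjusted p = 6.97e-28, the quasi-likelihood test of edgeR), whereas Hoxc6 differed by 0.24 ± 0.16 (adjusted p = 0.18, edgeR). Their paralog group summed to medians of 9.60, 3.72 and 0 CPM in the NTS, CVLM and RVLM.

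Hoxb7 (ENSRNOG00000007611) was close to restricted to the NTS. Its values there were 0.306, 5.99 and 18.5 CPM as lowest, median and highest, against 0, 0.0319 and 1.14 CPM in the CVLM, where 23 of 46 libraries were at 0, and 0, 0 and 0.255 CPM in the RVLM, where 40 were. The NTS was above the CVLM in 46 of 46 rats although the extremes of different rats overlap, 49.8-fold in the means and by 5.61 ± 0.20 on the log2 scale (SE, adjusted p = 3.8e-46, the quasi-likelihood test of edgeR). The call of CVLM over RVLM, 1.90 ± 0.40, rests on 56 counts in all CVLM and 11 in all RVLM libraries, with both regions equal in 21 rats. Hoxb8 (ENSRNOG00000007585), the next gene of the cluster, was under the filter in every region and had 253 counts over the NTS libraries, 10 over the CVLM and 3 over the RVLM. Without the filter it was called with a log2 difference of NTS from CVLM of 3.91 ± 0.31 (SE, adjusted p = 1.45e-20, edgeR).

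**Figure D2:**
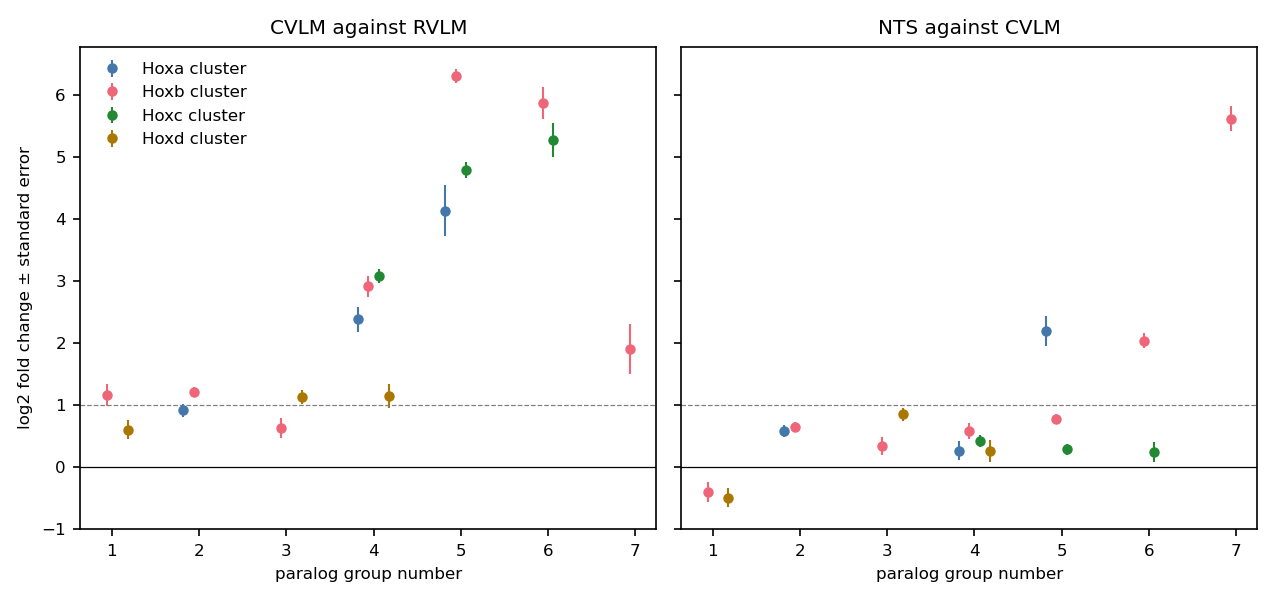
Log2 differences of the CVLM from the RVLM and of the NTS from the CVLM are plotted for the tested Hox genes against their paralog group number, with bars for the standard error, colours for the cluster and a dashed line at 1 (2-fold). CVLM-RVLM differences run from 0.60 to 1.21 in groups 1 to 3, where Hoxd4 of group 4 also lies at 1.14, and reach 6.30 in group 5. The NTS-CVLM difference of 5.61 for Hoxb7 in group 7 stands above all others of that pair.

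Read by number, the CVLM-RVLM log2 differences of tested genes were 0.60 to 1.21 in groups 1 to 3, 1.14 to 3.08 in group 4 and 4.13 to 6.30 in group 5. In the 2 tested genes of group 6 they were 5.27 and 5.87, and in Hoxb7 1.90. The NTS-CVLM differences were -0.50 to 0.85 in groups 1 to 3, and over 1 only for Hoxa5, Hoxb6 and Hoxb7. Over the 16 tested genes the median was 2.14 between CVLM and RVLM, 0.49 between NTS and CVLM and 3.07 between NTS and RVLM, beside -0.01, 0.01 and -0.00 over all tested genes. All 16 were on the positive side between CVLM and RVLM and between NTS and RVLM, and 14 between NTS and CVLM. Only 7 of the 16 passed the filter in the RVLM, and the others were tested because they passed it in the NTS or CVLM. These medians and signs thus follow in part from the filter, and they describe and do not support. Genes of a cluster lie next to each other and were measured in the same punches, so they are not independent.

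Regional differences were also compared between strains, as the difference of the difference. For CVLM against RVLM, NTS against CVLM and NTS against RVLM, 0 of 16 Hox genes passed (adjusted p under 0.05, quasi-likelihood test of edgeR), with 4, 0 and 3 genes at an unadjusted p under 0.05 and none in DESeq2. Of all tested genes, 0.385%, 0.328% and 1.93% passed. Hoxb5 differed between CVLM and RVLM by 6.58 on the log2 scale in WKY rats and 6.18 in SHRs, with a change of -0.39 ± 0.27 (SE). For Hoxb7 the NTS-CVLM difference was 5.86 in WKY rats and 5.50 in SHRs. No difference in the regional pattern was thus detectable, which does not show that the strains are alike.

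Strains were then compared within each region. Averaged over the 5 ages, 4 of 15 tested genes passed an adjusted p under 0.05 in the NTS, where SHRs had more Hoxb6, Hoxb7 and Hoxc6 and less Hoxb3. In the CVLM 3 of 14 passed, with more Hoxb1 and Hoxc5 and less Hoxb3 in SHRs. In the RVLM 0 of 7 passed by the quasi-likelihood test of edgeR, with 1 at an unadjusted p under 0.05 and 0 in DESeq2. Over all tested genes the shares for NTS, CVLM and RVLM were 11.2%, 12.3% and 10.8%. The WKY group holds 18 rats and the SHR group 28. Hoxb1 was under the filter and so untested in the NTS and RVLM. Its mean in the RVLM was 0.293 ± 0.334 CPM in WKY rats and 0.59 ± 0.304 CPM in SHRs (SD), and without the filter it was higher in SHRs by 1.16 ± 0.32 on the log2 scale (SE, adjusted p = 0.0154, the quasi-likelihood test of edgeR). By age this RVLM difference was 3.16 ± 0.80 at 8 wk (SE, adjusted p = 0.0135, edgeR) and 1.54 at 10 wk (adjusted p = 0.619). At 12, 16 and 24 wk it was 0.35, 0.30 and 0.44. At 8 wk 3 of 5 WKY rats and no SHR had a library name ending in 2. The RVLM median of Hoxb1 was 0.179 CPM in libraries with that ending and 0.512 CPM in those ending in 1. The part of the name number in this difference was not tested. In the NTS the difference over the ages without the filter was 0.52 ± 0.26 (SE, adjusted p = 0.303, edgeR). At 10 wk in the NTS the WKY rats reached at most 0.443 CPM and the SHRs had at least 0.563 CPM, and the difference without the filter was 2.23 ± 0.62 (SE, adjusted p = 0.0399, edgeR).

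In the NTS, Hoxc6 had lowest, median and highest values of 0.102, 1.02 and 2.02 CPM in WKY rats and 0.366, 1.89 and 3.99 CPM in SHRs. The strains overlapped, with the SHR mean higher at 5 of 5 ages and a log2 difference of SHRs from WKY rats of 0.98 ± 0.22 (SE, adjusted p = 0.00164, the quasi-likelihood test of edgeR). For Hoxb7 the values were 0.306, 4.37 and 10.3 CPM in WKY rats and 1.46, 6.78 and 18.5 CPM in SHRs, and the difference, again positive at 5 of 5 ages, was 0.91 ± 0.26 (SE, adjusted p = 0.0141, the quasi-likelihood test of edgeR). Hoxb6 ran 1.98, 6.51 and 11.1 CPM in WKY rats and 3.57, 9.52 and 18.8 CPM in SHRs. Its log2 difference was 0.57 ± 0.18 (SE, adjusted p = 0.0284, the quasi-likelihood test of edgeR), also with higher SHR means at all 5 ages. Hoxb3 went the other way, with 0.504, 2.05 and 3.36 CPM in WKY rats and 0.121, 1.17 and 2.13 CPM in SHRs. It was lower in SHRs at 4 of the 5 ages, by -0.69 ± 0.21 (SE, adjusted p = 0.0282, the quasi-likelihood test of edgeR) on the log2 scale. Leaving out any of several WKY rats ended the calls of Hoxb6 and Hoxb3, with log2 differences that stayed at 0.51 to 0.54 and at -0.66 to -0.58. In edgeR's test the adjusted p of Hoxb6 rose to 0.0534, 0.0633 or 0.0566 without replicate 1 of 12, 16 or 24 wk, and that of Hoxb3 to between 0.0536 and 0.0964 without 12 wk replicate 3, 16 wk replicate 2 or 3 or 24 wk replicate 2. In the same NTS punches, 4 of 6 tested choroid plexus and ependyma genes were lower in SHRs, with summed levels from 4.56 to 4410 CPM over all libraries and medians of 23.4 CPM in WKY rats and 14.0 CPM in SHRs, and their part in the Hox differences was not tested.

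For Hoxb7 and Hoxc6 in the NTS the strain difference was widest at 12 wk. The 3 WKY rats had 0.306, 1.65 and 1.76 CPM of Hoxb7, and the 6 SHRs 3.28, 5.81 and 13.9 CPM as lowest, median and highest. For Hoxc6 the WKY rats had 0.102, 0.247 and 0.647 CPM and the SHRs 0.883, 1.32 and 3.52 CPM. For both genes all WKY values at 12 wk were below all SHR values. The log2 differences were 2.40 ± 0.68 (SE, adjusted p = 0.0364, the quasi-likelihood test of edgeR) for Hoxb7 and 2.38 ± 0.60 (adjusted p = 0.0142) for Hoxc6. Each rested on 3 WKY rats. Without WKY replicates 1, 2 or 3 of that age the adjusted p of Hoxb7 in edgeR became 0.226, 0.138 and 0.0792, and without SHR replicates 4 or 5 it was 0.101 and 0.0559. For Hoxc6 it became 0.118 and 0.145 without WKY replicates 1 or 2. In these fits the log2 differences were 1.99 to 2.71 for Hoxb7 and 2.03 and 2.19 for Hoxc6.

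In the CVLM, Hoxb1 had lowest, median and highest values of 0.199, 0.604 and 1.14 CPM in WKY rats and 0.629, 1.17 and 2.38 CPM in SHRs. SHR means were higher at 5 of 5 ages with overlapping strains, and the log2 difference of SHRs from WKY rats was 0.93 ± 0.19 (SE, adjusted p = 0.000298, the quasi-likelihood test of edgeR). Hoxb3 was again lower in SHRs, with 0.497, 1.65 and 2.41 CPM in WKY rats and 0.109, 0.935 and 2.25 CPM in SHRs. The SHR mean of Hoxb3 was below the WKY mean at all 5 ages and the difference was -0.78 ± 0.23 (SE, adjusted p = 0.0147, the quasi-likelihood test of edgeR). Hoxc5 stood at 12.5, 17.5 and 27.9 CPM in WKY rats and 12.9, 23.0 and 31.4 CPM in SHRs, a small difference of 0.25 ± 0.08 (SE, adjusted p = 0.0288, the quasi-likelihood test of edgeR). Without WKY 10 wk replicate 2, 12 wk replicate 2 or 3 or 16 wk replicate 3, its adjusted p in edgeR was 0.05 to 0.068 and its log2 difference 0.23 to 0.24. In the CVLM, 4 of 7 tested oligodendrocyte genes were lower and 1 higher in SHRs, with summed medians of 55255 CPM in WKY rats and 48606 CPM in SHRs, and the part of this in the Hox values was not tested.

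**Figure D3:**
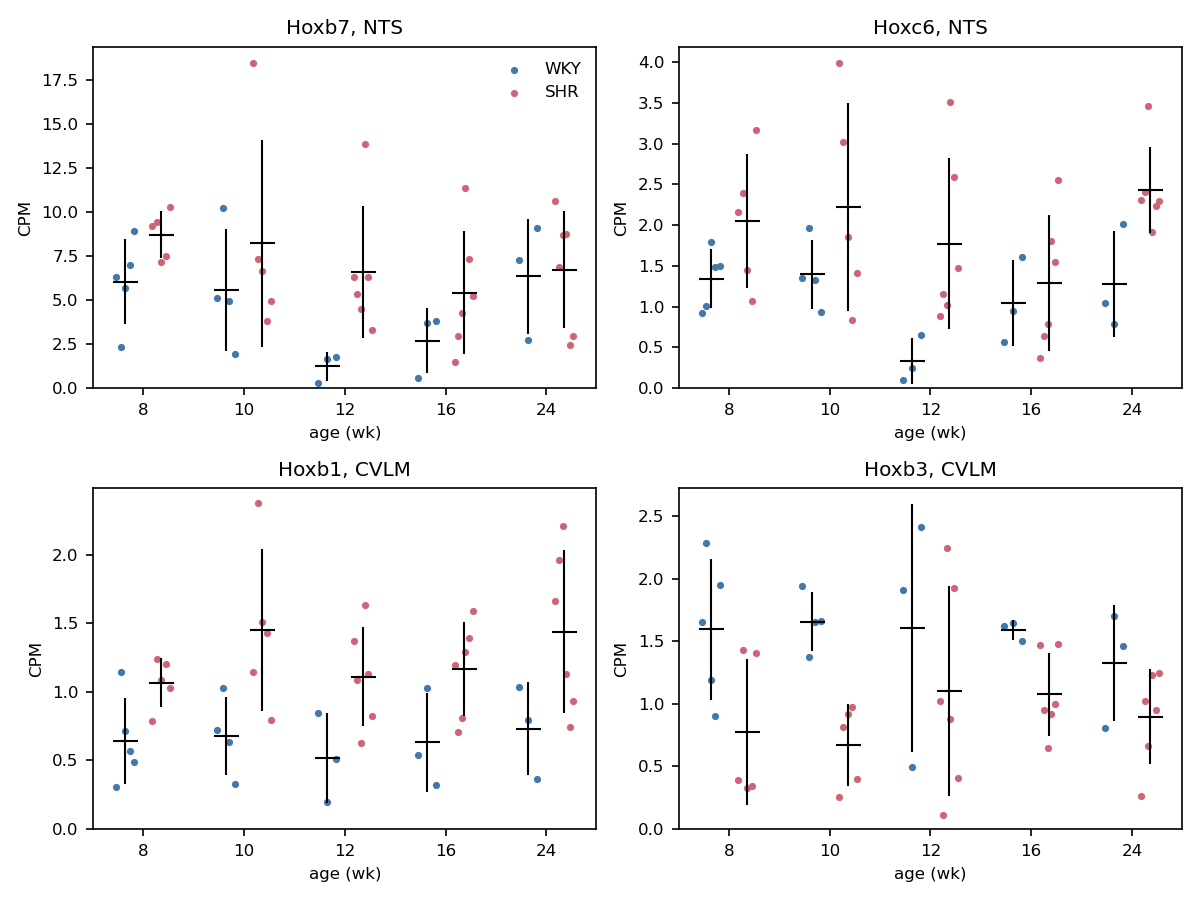
CPM of Hoxb7 and Hoxc6 in the NTS and of Hoxb1 and Hoxb3 in the CVLM are plotted against age in weeks, with 1 point per rat, WKY rats in blue, SHRs in red, and the mean ± SD of each group. At 12 wk the 3 WKY rats lie below all 6 SHRs for Hoxb7 and Hoxc6, and Hoxb3 means are lower in SHRs at each age.

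Over 180 tests of a Hox gene at a single age, 4 passed an adjusted p under 0.05, beside 3.87% over all genes, regions and ages. They are the pair of 12 wk differences in the NTS above and Hoxb6 and Hoxc5 in the CVLM at 8 wk. WKY rats at 8 wk had 0.722, 0.726, 1.03, 0.164 and 0.584 CPM of Hoxb6 and SHRs 0.523, 3.24, 2.27, 2.06 and 1.59 CPM. The strains overlapped by 1 SHR, and the log2 difference was 1.59 ± 0.48 (SE, adjusted p = 0.0337, the quasi-likelihood test of edgeR). For Hoxc5 the values were 19.6, 12.9, 16.0, 13.9 and 13.4 CPM in WKY rats and 27.3, 18.1, 18.1, 23.9 and 21.2 CPM in SHRs, overlapping by 1 WKY rat, with a difference of 0.52 ± 0.17 (SE, adjusted p = 0.0466, the quasi-likelihood test of edgeR). In this group 3 of the 5 WKY rats and no SHR had a library name ending in 2. With that number as a term in edgeR, the log2 difference was 1.3 for Hoxb6 (adjusted p = 0.329) and 0.30 for Hoxc5 (adjusted p = 0.676), and neither call was kept. Without the 2 libraries of conflicting age label the log2 difference was 1.63 for Hoxb6 (adjusted p = 0.0782, edgeR) and 0.49 for Hoxc5 (adjusted p = 0.137, edgeR). Single rats of that age also ended the call of Hoxb6 in edgeR (adjusted p up to 0.134, without SHR replicate 2, 3 or 4 or WKY replicate 4 or 5), and that of Hoxc5 was lost in 21 of 46 fits that left out 1 rat.

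Library names in the tables end in 1 or 2, and what the number stands for is not given in the sources used here. It was 2 for all rats of 10 wk, for 3 of 5 WKY rats of 8 wk and for 1 SHR each at 12 and 24 wk, or 14 of 46 libraries in each region. Levels of some Hox genes moved with it. In the NTS, Hoxb2 was at 4.44 to 24.9 CPM (median 15.5) in libraries of number 1 and at 5.35 to 10.6 CPM (median 7.23) in those of number 2. Hoxb5 stood at 82.4 to 168 CPM (median 113) and 58.1 to 115 CPM (median 75.5). Hoxd1 went the other way, with 0.388 to 3.2 CPM (median 1.5) and 1.82 to 5.53 CPM (median 3.35). The direction of these medians was the same in the other regions, with Hoxb2 at 9.72 against 4.49 CPM in the CVLM and 4.28 against 1.58 CPM in the RVLM, and Hoxd1 at 1.86 against 5.24 and 1.2 against 3.29 CPM. For Hoxb5 the medians were 68.7 and 43.5 CPM in the CVLM. Other genes moved less. In the NTS the medians for number 1 and 2 were 7.75 and 6.87 CPM for Hoxa2, 23.0 and 21.5 CPM for Hoxc4 and 1.18 and 1.17 CPM for Hoxd4. Within libraries of number 1 or 2 alone, the CVLM-RVLM log2 difference of Hoxb5 was 6.24 and 6.48, and the NTS-CVLM difference of Hoxb7 was 5.42 and 6.00. Calls lost between CVLM and RVLM were those of Hoxb1 (0.91) and Hoxd3 (0.97) in libraries of number 1 and of Hoxd4 (0.91) and Hoxb7 (0.99) in those of number 2. The strain differences of Hoxb6, Hoxb7 and Hoxc6 in the NTS and of Hoxb1 in the CVLM passed within libraries of number 1, while Hoxb3 in the NTS and CVLM and Hoxc5 in the CVLM did not, with log2 differences of -0.78, -0.70 and 0.25 (adjusted p = 0.0944, 0.167 and 0.122, edgeR). With all libraries and the number as a term these calls were kept, at -0.68, -0.80 and 0.23 (adjusted p = 0.031, 0.0118 and 0.0351, edgeR).

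**Figure D4:**
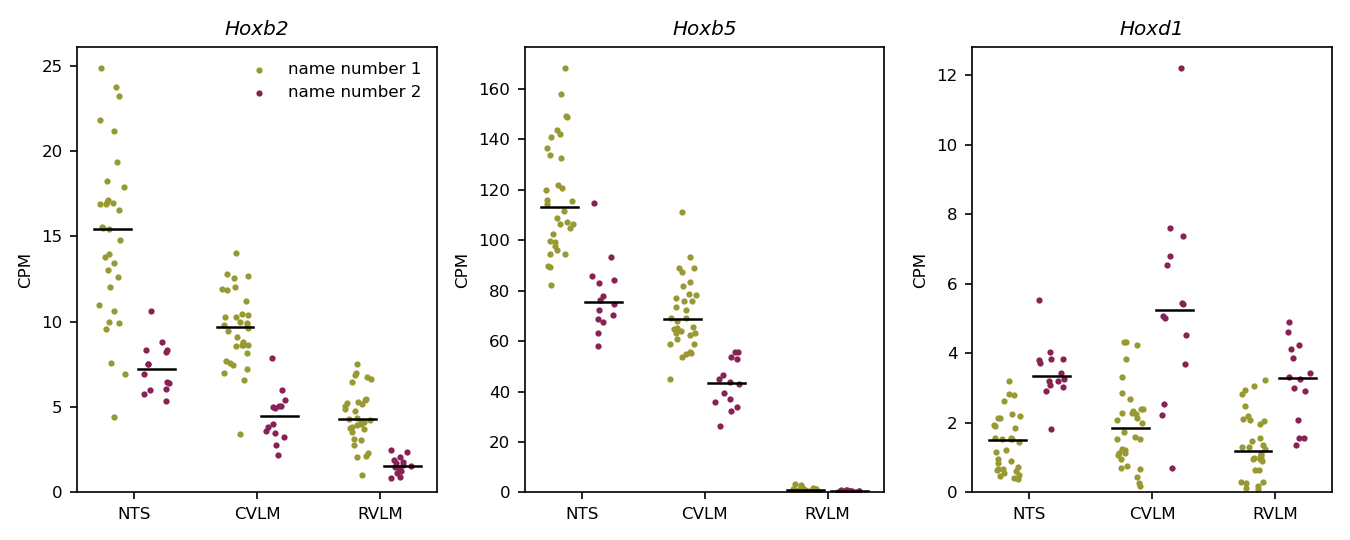
CPM of Hoxb2, Hoxb5 and Hoxd1 by region, with 1 point per library split by the number 1 or 2 at the end of the library name and a line at the median. Medians of Hoxb2 and Hoxb5 are lower and those of Hoxd1 higher in libraries of number 2 in each region.

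Age was tested over both strains in each region, and 18 of 36 Hox tests passed an adjusted p under 0.05, as 5 of 15 for the NTS, 9 of 14 for the CVLM and 4 of 7 for the RVLM. The shares over all genes were 35.9%, 43.4% and 36.7%. Since every 10 wk library carries the number 2, age and number cannot be told apart at 10 wk. With the number as a term, 2 of 36 Hox tests passed, beside 1.14% over all genes, namely Hoxb5 (adjusted p = 0.0424) and Hoxc6 (adjusted p = 0.0429) in the CVLM by the quasi-likelihood test of edgeR. Both genes were singled out after their values were seen. From the youngest to the oldest rats, CVLM medians were 54.7, 46.6, 65.2, 78.2 and 69.3 CPM for Hoxb5 and 0.652, 1.13, 1.25, 1.79 and 1.7 CPM for Hoxc6. Within libraries of number 1 alone, 0 of 36 passed in edgeR, with 4, 4 and 1 at an unadjusted p under 0.05 in the NTS, CVLM and RVLM.

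Genes whose proteins work with Hox proteins were compared in the same way. None of the 9 TALE cofactors, the Pbx, Meis and Pknox genes that bind DNA beside Hox proteins, and none of the 21 tested Polycomb, Trithorax and Ctcf genes was called between CVLM and RVLM by edgeR or DESeq2. The shares over all genes, 2.97% higher and 2.41% lower, are such that a count of 0 does not set these lists apart, and 8 of the cofactors and 8 of the chromatin genes had an unadjusted p under 0.05 in edgeR. Pknox2 alone among these was called in the NTS, by 1.24 ± 0.06 over the CVLM and 1.35 ± 0.06 over the RVLM (log2, SE). Of 7 tested genes of upstream patterning, Cyp26b1, an enzyme that breaks down retinoic acid, had 0, 0.611 and 2.04 CPM in the NTS, 0.454, 1.57 and 4.0 CPM in the CVLM and 11.2, 18.3 and 29.8 CPM in the RVLM as lowest, median and highest. All RVLM libraries were above all others, opposite in order to Hoxb5, with a log2 difference of CVLM from RVLM of -3.44 ± 0.13 (SE). Gbx2 was called as higher in the CVLM by 1.27 ± 0.23, at 0 to 2.23 CPM there. Aldh1a2, which makes retinoic acid, and the receptor gene Rarb were higher in the NTS than in the CVLM, by 3.66 ± 0.17 and 1.47 ± 0.05, and Rarb medians were 35.9, 13.6 and 7.44 CPM in the NTS, CVLM and RVLM. The 1 tested gene of the mid-hindbrain boundary list was not called between any regions by edgeR, nor between CVLM and RVLM by DESeq2, where its unadjusted p was under 0.05 in edgeR.

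Among the cofactors, Pbx3 was lower in SHRs in all 3 regions. This gene, singled out after its values were seen, had 75.1, 91.8 and 130.2 CPM in WKY rats and 44.6, 51.9 and 72.5 CPM in SHRs in the NTS. In the CVLM it had 100.1, 117 and 155 and 28.8, 40.8 and 49.96 CPM, and in the RVLM 56.2, 79.6 and 128 and 23.4, 32.1 and 45.3 CPM. WKY and SHR values did not overlap in any region, and the log2 differences of SHRs from WKY rats were -0.82 ± 0.06, -1.60 ± 0.05 and -1.45 ± 0.07 (SE). Pbx4 was lower in SHRs by -0.46 ± 0.14 in the CVLM and -0.47 ± 0.15 in the RVLM. Of the chromatin genes, Ring1 in the NTS passed with 0.31 ± 0.10 (adjusted p = 0.0329, the quasi-likelihood test of edgeR).

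Markers of the cell types in the punches moved with region, too. Motor neuron genes were called as lower in the CVLM than in the RVLM in 6 of 6 tested, with Calca, Slc18a3 and Isl1 at -4.73 ± 0.23, -4.27 ± 0.15 and -4.14 ± 0.15 (log2, SE), and their summed level ran from 888 to 3077 CPM in the RVLM, 65.8 to 320.2 CPM in the CVLM and 164 to 814 CPM in the NTS. Catecholamine neuron genes were higher in the CVLM than in the RVLM in 5 of 7, with Dbh at 2.94 ± 0.15 and Slc18a2 at 1.65 ± 0.09. Pnmt, the adrenaline-forming enzyme of C1 neurons, which are known from the RVLM, had 0.91, 19.7 and 67.1 CPM in the RVLM and 12.0, 41.9 and 79.3 CPM in the CVLM. The defining markers were thus present in the RVLM punches and not highest there. Of 9 neuron genes 1 was higher and 4 lower in the CVLM, of 4 serotonin genes 2 were higher, and of 6 choroid plexus and ependyma genes 1 was higher and 1 lower, while the NTS had 5 of these 6 above the CVLM. No gene of the oligodendrocyte, astrocyte, microglia or endothelium lists was called between CVLM and RVLM in edgeR or DESeq2, with 5 of 7, 5 of 6, 1 of 6 and 2 of 5 at an unadjusted p under 0.05 in edgeR. The part of these markers in the Hox differences was not tested.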

How the data were processed

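RNA of NTS, CVLM and RVLM punches from 46 rats was sequenced, and groups were taken from the sample labels. Per the methods, STAR within RSEM aligned the reads to rat build rn6, and the authors deposited expected counts per gene, which are estimates that need not be whole and are not normalized. An adjustment with ComBat_seq is named there, but the sources used here do not say if these tables went through it. No column of sample values was left unmapped. Since the use of strand in counting is not stated, reads of a Hox gene and of an antisense or overlapping transcript cannot be told apart.

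Expected counts were rounded. Genes with an rlog value (DESeq2 1.42.0) of at least 3.5 in a library were kept, which left 13793, 13408 and 13411 genes in the NTS, CVLM and RVLM and 14043 in at least 1 region. Counts were scaled with TMM and tested in R 4.3.3 with edgeR 4.0.16 (glmQLFit with robust estimation, glmQLFTest). Regions were compared over all libraries of the 3 regions with the rat as a block, and strains and ages in 1 fit per region without a batch term. Benjamini-Hochberg adjustment ran over all genes of a test, and all tests were two-sided. The code was tested on simulated counts. Library totals ran from 5904581 to 17889417, and the number of rats rather than depth sets the errors, except for genes of a few counts.

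Every row of the rule was accounted for. Full values are given for Hox genes called between regions or between strains over the ages, and of each other list up to 3 called genes with the largest difference between CVLM and RVLM. The members and lists were chosen with earlier results of these data known. Other genes are said to be singled out after their values were seen, apart from cofactors, retinoid genes and label markers, which come from the same lists. Alternatives were another scaling, DESeq2, no filter, other fold thresholds, single strains, leaving out each rat, the replicate number, the number in the library name and leaving out 2 libraries with conflicting ages.

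Of 54 pairs of rats with the same replicate number in both strains, 32 had deviations that correlated over 0.1 (range -0.33 to 0.55). Since not every pair did and the labels tie no rats together by number, this block serves only as an alternative. Among 270 pairs of libraries of 1 group, the lowest chi-square per gene was 4.81, so no library was counted as a repeat of another. Per the methods the rats were housed singly, the labels do not give their litters, and p values measure the spread between these rats. RefSeq promoters of build GRCr8 were matched by symbol, and no coordinate was carried to or from rn6.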

Additional observations from a re-analysis of the deposited data

Results flagged for a closer look

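Values of Hox genes with a strain difference were examined for single rats far from the others in 56 sets of values, each of 1 gene and region in a group of 4 to 6 rats, by Dixon's criterion at the 95% level, and 3 rats stood apart. Chance alone flags about 1 in 20 groups. Hoxb7 in the NTS was 18.5 CPM in SHR 10 wk replicate 1, where the other 4 SHRs of that age had 3.81 to 7.32 CPM. Hoxb7 in the NTS was 13.9 CPM in SHR 12 wk replicate 4, against 3.28 to 6.32 CPM in the other 5. Hoxc6 in the NTS was 3.46 CPM in SHR 24 wk replicate 3, against 1.92 to 2.40 CPM in the other 5. All 3 are SHRs above their group. Without SHR 10 wk replicate 1 the mean log2 difference of Hoxb7 over the ages was 0.81, and without SHR 12 wk replicate 4 that at 12 wk was 2.05 (adjusted p = 0.101, edgeR's quasi-likelihood test). The reason for these values was not tested.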

How the results depend on the processing

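Counts of Hox genes called between regions were kept within 1.5 times in all alternatives but 1. At a 1.5-fold threshold 6 genes in place of 3 were called between NTS and CVLM. Of 261 alternative values of genes called between regions, 256 stayed past the threshold, and the others fell below it with libraries of 1 name number or SHRs only. With no replicate block the region counts were 13, 3 and 13, and 0 genes differed between strains. Strain counts with a replicate block for NTS, CVLM and RVLM were 5, 3 and 0, with 5 at single ages, and the age count was 18. Under this block Hoxb7 at 12 wk lost its call (adjusted p = 0.0592, edgeR), as it did without the filter (adjusted p = 0.068, edgeR), and every other strain call named in the text kept its side of the threshold under the block. Without the filter 1 gene, Hoxb1, in place of 0 differed between strains in the RVLM.

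Libraries with names ending in 1 alone, an alternative chosen after seeing the data, gave 1 strain call in place of 3 in the CVLM, 2 in place of 4 at single ages and 0 in place of 18 over ages. With the name number as a term, 2 single-age and 2 age calls were left, and without the 2 CVLM libraries of conflicting age 2 single-age calls. Leaving out 1 rat at a time gave 3 to 4 strain calls in the NTS, 2 to 4 in the CVLM, 0 to 1 in the RVLM, 2 to 7 at single ages and 15 to 20 over ages. The count of 1 in the RVLM came without WKY 8 wk replicate 2. Single-age counts were 7 without WKY 8 wk replicate 1, and 2 without WKY 8 wk replicate 4 or 5, WKY 12 wk replicate 1 or 2, or SHR 12 wk replicate 4 or 5.

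Strain calls that single rats ended in edgeR's quasi-likelihood test stand beside the values of Hoxb6, Hoxb3, Hoxc5, Hoxb7 and Hoxc6 above. The strain calls of Hoxc6 and Hoxb7 over the ages in the NTS and of Hoxb1 and Hoxb3 in the CVLM were kept in all 46 fits. No value changed sign. Beyond a changed number of rats or genes tested, the cause of these shifts was not tested. Genes with a few counts in the RVLM are limited by depth.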

Other observations

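Some Hox genes varied together among rats within the NTS. Across the 32 NTS libraries with names ending in 1, log2(CPM + 0.5) of Hoxb7 correlated with that of Hoxc6 (Pearson's r = 0.797, Spearman's rho = 0.762, permutation test, adjusted p = 8e-05 and 0.00016) and of Hoxb6 (r = 0.721, rho = 0.606, permutation test, adjusted p = 8e-05 and 0.00216). The unadjusted p of both r was 1e-05, the smallest that 100000 resamples can give. Without the 2 rats farthest from the median of Hoxb7, r was 0.747 for Hoxc6 and 0.563 for Hoxb6, and after subtracting the mean of each strain and age it was 0.662 and 0.584. For Hoxc5 r was 0.631 (0.527 without the 2 farthest rats). For Hoxb8, of few counts, it was 0.422 (permutation test, adjusted p = 0.0368), 0.277 without the 2 farthest rats and 0.146 after subtracting group means. For Hoxa2, a gene of the forward groups, r was -0.399 and rho -0.496 (permutation test, adjusted p = 0.045 and 0.0121). Across the 14 libraries with names ending in 2, r was 0.836 for Hoxb6 (0.673 without the 2 farthest rats) and 0.681 for Hoxc6, which fell to 0.29 and so rests on those 2 rats. For Hoxa2 it was 0.46. After subtracting group means r was 0.795 for Hoxb6, 0.834 for Hoxc6 and 0.622 for Hoxa2. For Hoxd3 r was -0.357 in the 32 libraries and -0.601 in the 14 (permutation test, adjusted p = 0.0583 and 0.045). Without the 2 farthest rats these were -0.385 and -0.23. For Hoxc5 r in these 14 libraries was 0.448 (permutation test, adjusted p = 0.124). It was 0.00369 without the 2 farthest rats and 0.616 after subtracting group means. In all, 16 relations with 8 Hox genes were computed and adjusted together. The points share library, depth and punch, and Hoxb7 was chosen after its values were seen.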
